A study of Mus musculus with 2 samples.

Results

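Ion channel genes of the potassium, voltage-gated calcium and transient receptor potential (TRP) families were followed in cultured mouse brain pericytes (PCs), the cells that wrap brain capillaries. The members were all gene symbols, except *Kcnj8*, that begin with Kcn and hold a number (potassium channels, their subunits and their antisense RNAs). They also took in all Cacna, Cacnb and Cacng symbols (calcium channel subunits) and all numbered Trpc, Trpm and Trpv symbols. They came to 144 of the 31053 genes listed, with 97 potassium, 26 calcium and 21 TRP members. The rule reads gene names and no measured value.

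The cells were primary PCs of wild-type female C57BL/6N mice aged 6 to 8 weeks, with the brains of 6 mice pooled for an isolation, grown on collagen in endothelial growth medium and then in pericyte medium. One droplet-based single-cell library was made at passage 5 (PC5) and 1 at passage 20 (PC20), and the methods state that each passage came from its own isolation, whereas the description of the series can be read as a single isolation. Passage and library, and isolation where it was separate, can therefore not be told apart, and all differences below are between 2 libraries, with no replicate check. Cells were kept at over 1000 genes and with less than 20% of their UMIs (unique molecular identifiers, each counting 1 captured RNA molecule) from mitochondrial genes, which left 9950 of 10629 PC5 barcodes and 4749 of 4884 PC20 barcodes.

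Potassium channels set the resting membrane potential and pull it back after a depolarization. Voltage-gated calcium channels join a pore subunit to auxiliary alpha2delta and beta subunits and let calcium in when the membrane depolarizes, which in the mural cells of vessels drives contraction. TRP channels are cation channels gated by lipids, stretch, temperature, osmotic change or internal calcium.

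Most channel genes were silent or nearly so in both cultures. PC20 cells had more UMIs than PC5 cells, with a median of 33424 against 21700. UMIs were therefore drawn at random from every cell down to the same number before cells with a UMI were counted. The number was set near the 10th percentile of depth over the kept cells of both libraries, and it left 8847 PC5 cells and 4474 PC20 cells, with 1103 and 275 cells too shallow. A gene was taken as on where at least 1% of the thinned cells held a UMI. By this measure 23 of the 144 members (16.0%) were on in PC5, where 37.6% of all genes were on, and 18 (12.5%) were on in PC20, where 36.1% of all genes were on. Both shares lay below the share over all genes. Of the 27 members on in at least 1 library, 14 were on in both, 9 in PC5 alone and 4 in PC20 alone. The order of the counts depends on the threshold, since at 5% of cells 9 members were on in PC5 and 13 in PC20. No UMI of 23 members was seen in either library, and 36 members were at 0 in PC5 and 55 in PC20. Of all 31053 genes, 9299 were at 0 in both libraries, 10464 in PC5 and 11907 in PC20. By share, members were thus at 0 no more often than all genes. A count of 0 thinned cells, read as at most 3, allows a share of cells with a UMI of up to 0.0339% in PC5 and 0.0671% in PC20, which limits detection and not the share of cells that express a gene.

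**Figure D1:**
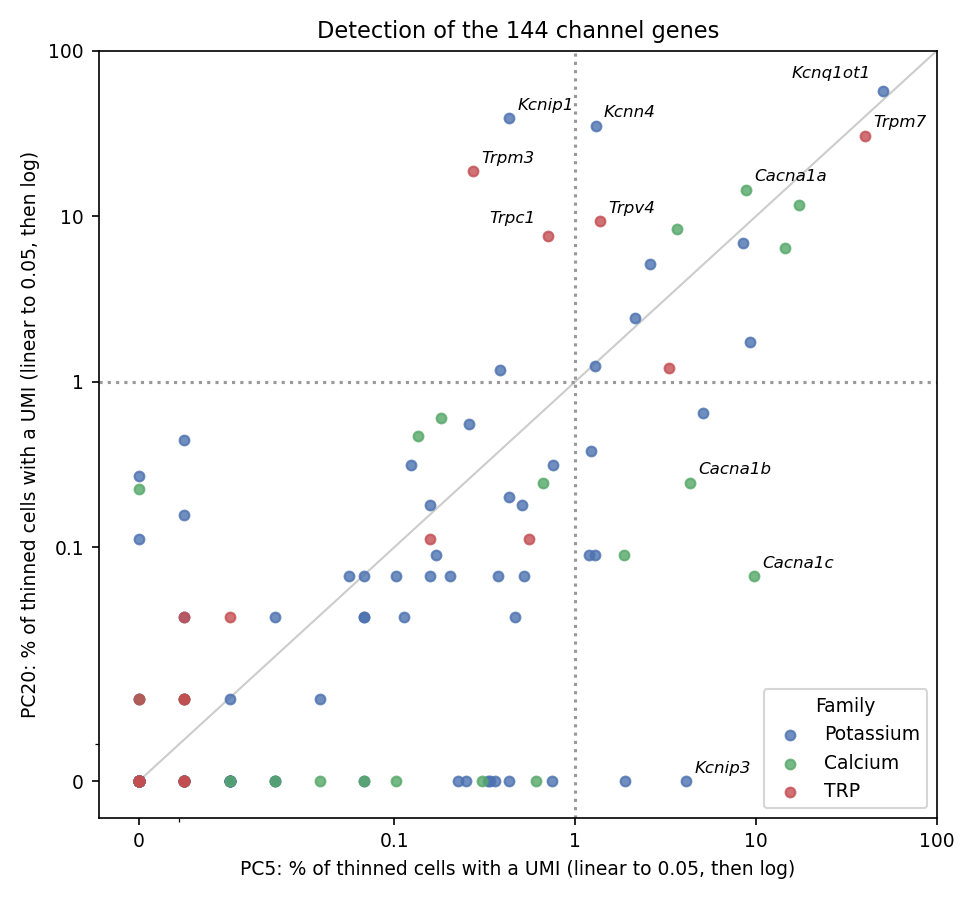
Percent of thinned cells with a UMI for each of the 144 channel genes in PC5 (x axis) and PC20 (y axis), on axes that are linear to 0.05 and logarithmic above, coloured by family, with dotted lines at 1% and a grey line of equal shares. Most genes lie in the lower left field below both dotted lines, while *Kcnip1*, *Kcnn4* and *Trpm3* stand far above the grey line and *Cacna1c* and *Kcnip3* far below it.

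Levels are given as CPM, the UMIs of a gene scaled to a library total of 1000000 UMIs and summed over kept cells. The libraries capture the 3′ ends of RNAs, so a level counts molecules and was not divided by transcript length. The log2 ratio is that of PC5 over PC20 CPM, so that a positive value is higher in PC5. Intervals in brackets are exact 95% intervals (Poisson for CPM, conditional binomial for log2 ratios, Clopper-Pearson for shares of cells). They cover counting error only and not the spread between cultures. Among the 27 members on in at least 1 library, 12 (44.4%) were higher in PC5 by a log2 ratio over 1, against 21.7% of all genes that were on in either library. A further 7 (25.9%) were higher in PC20 by as much, against 18.9% of all genes, and 8 lay between. Members on in a single library entered this count through the library in which they were high, so the counts describe the list and are not support for a shift. The median log2 ratio of the 27 was 0.52, beside 0.04 for all genes on in either library. Over the members on at 5% of cells the median was -0.72, with 4 higher in PC5 and 6 in PC20, so the direction of the list as a whole is not settled by these counts.

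The summed level went the other way. All 144 members together had 257 CPM in PC5 (255 to 260) and 373 CPM in PC20 (370 to 375). A single non-coding member, *Kcnq1ot1*, gave 34.7% of these UMIs in PC5 and 33.9% in PC20. It is the antisense RNA of the imprinted *Kcnq1* region and encodes no channel. Its levels were 89.4 and 126 CPM, and it was found in 50.7% of thinned PC5 cells and 57.2% of thinned PC20 cells (63.9% and 77.5% before thinning). The channel gene on the opposite strand, *Kcnq1*, had 0 UMIs in PC5 and 1 in PC20. The 139 protein-coding members summed to 168 CPM in PC5 (166 to 169) and 246 CPM in PC20 (244 to 248). Without *Kcnip1*, *Kcnn4* and *Trpm3*, chosen after their values were seen, the sums were 165 and 123 CPM, so that the order of the libraries turned.

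The protein-coding channel RNA was held by few genes, and by different ones in each library. In PC5 the leading member was *Trpm7* with 29.9% of the coding channel UMIs, followed by *Cacna2d1* with 11.2% and *Cacnb3* with 9.01%. In PC20 the leading member was *Kcnip1* with 21.6%, followed by *Kcnn4* with 18.8%, *Trpm7* with 14.2% and *Trpm3* with 9.67%. The first 6 genes held 67.4% of these UMIs in PC5 and 76.0% in PC20.

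**Figure D2:**
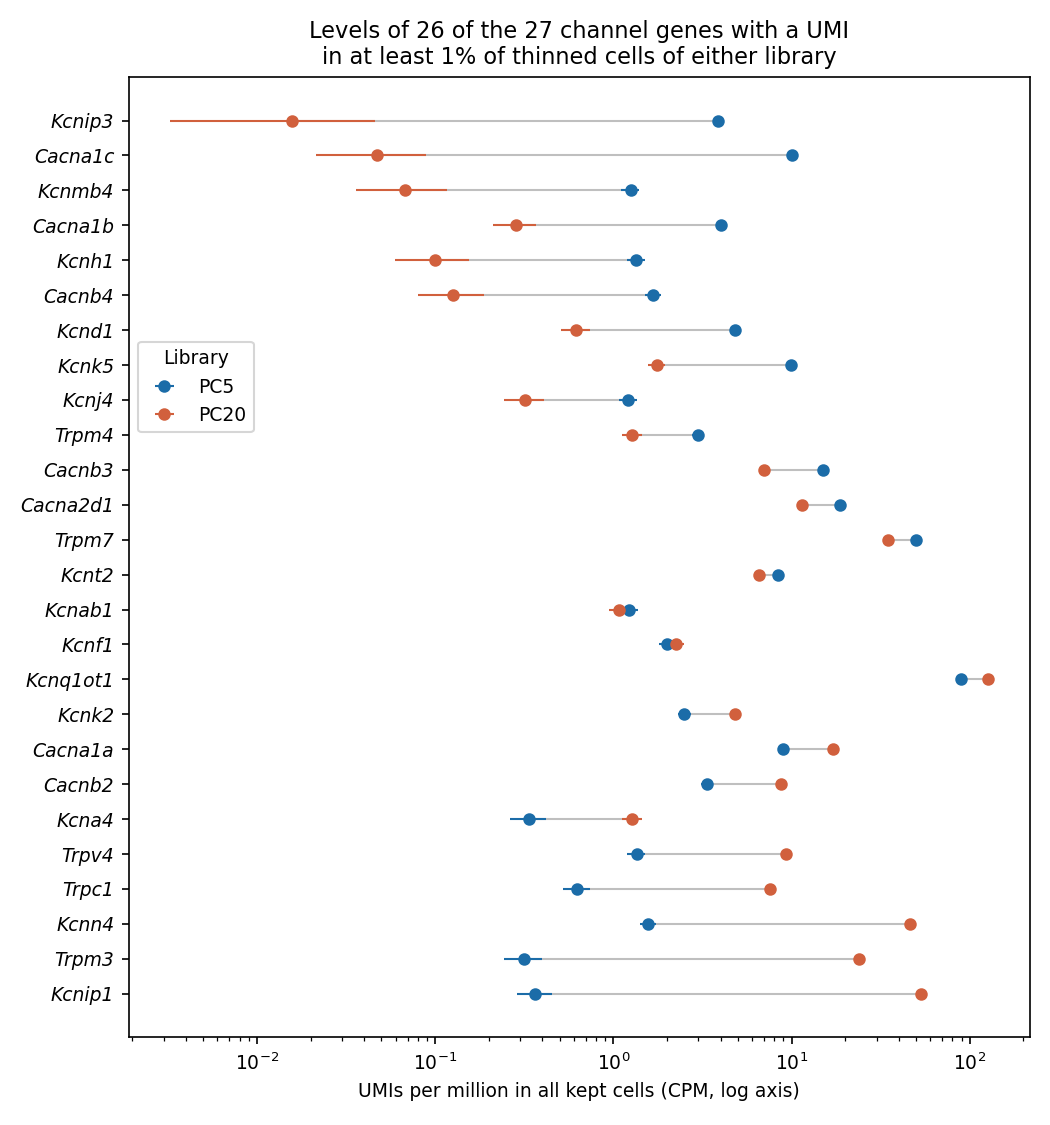
Levels of 26 of the 27 channel genes that were on in at least 1 library, as CPM over kept cells on a log axis, with PC5 in blue, PC20 in orange and exact 95% Poisson intervals as bars, sorted by log2 ratio. *Kcnip3* and *Cacna1c* at the top are highest in PC5 relative to PC20, *Kcnip1* and *Trpm3* at the bottom are highest in PC20, and *Kcnab1* and *Kcnf1* overlap or nearly overlap.

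Shown here by the sequence before a transcription start are 5 genes with wide gaps between the libraries, picked for these gaps. The sequences are RefSeq promoter windows on GRCm38.p6, of which the 250 bases before the start are printed 5′ to 3′ along the gene, and of several windows of a gene the one with the most CpG was taken. Capitals mark the searched letters GGGCGG on either strand (an Sp1-type GC box, read as CCGCCC on the other strand). The 3′ counts do not tell which start was used.
*Cacna1c*, chr6:119108496-119108745, - strand: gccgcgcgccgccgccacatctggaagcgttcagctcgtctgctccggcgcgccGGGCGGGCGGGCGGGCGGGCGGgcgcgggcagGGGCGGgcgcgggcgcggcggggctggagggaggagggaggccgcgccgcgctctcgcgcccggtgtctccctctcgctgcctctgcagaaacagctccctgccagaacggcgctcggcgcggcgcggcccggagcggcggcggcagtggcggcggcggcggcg
*Kcnip3*, chr2:127482500-127482749, - strand: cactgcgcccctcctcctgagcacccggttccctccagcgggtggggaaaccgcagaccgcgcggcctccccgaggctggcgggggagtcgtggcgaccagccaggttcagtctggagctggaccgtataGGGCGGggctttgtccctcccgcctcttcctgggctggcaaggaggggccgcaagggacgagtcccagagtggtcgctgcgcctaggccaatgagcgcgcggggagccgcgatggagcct
*Kcnip1*, chr11:33843687-33843936, - strand: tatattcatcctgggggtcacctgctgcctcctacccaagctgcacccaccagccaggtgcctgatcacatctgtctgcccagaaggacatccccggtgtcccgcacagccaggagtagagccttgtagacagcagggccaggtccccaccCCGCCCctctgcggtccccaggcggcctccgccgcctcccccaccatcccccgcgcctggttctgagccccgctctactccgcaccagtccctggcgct
*Kcnn4*, chr7:24370013-24370262, + strand: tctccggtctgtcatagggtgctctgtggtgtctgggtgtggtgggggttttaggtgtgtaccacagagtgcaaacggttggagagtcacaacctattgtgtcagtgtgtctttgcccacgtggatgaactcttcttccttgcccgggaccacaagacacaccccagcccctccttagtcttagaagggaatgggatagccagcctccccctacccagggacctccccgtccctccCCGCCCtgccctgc
*Trpm3*, chr19:22138796-22139045, + strand: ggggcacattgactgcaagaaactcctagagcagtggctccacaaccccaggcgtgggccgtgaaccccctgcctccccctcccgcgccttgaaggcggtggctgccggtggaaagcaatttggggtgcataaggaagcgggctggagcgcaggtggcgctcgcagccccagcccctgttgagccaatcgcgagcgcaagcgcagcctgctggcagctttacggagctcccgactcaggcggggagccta
The *Cacna1c* window was the richest in CpG of the 5, with 57 CpG in its 300 bases, and it held 6 copies of GGGCGG, which overlap in part. Counts are over all 300 bases, so a copy of *Kcnip3* lies at least in part beyond the 250 bases printed. The *Kcnip3* window held 28 CpG and 2 copies, the *Kcnip1* window 16 CpG and 1 copy, the *Kcnn4* window 6 CpG and 1 copy and the *Trpm3* window 21 CpG and no copy. The windows shown of *Kcnip1*, *Kcnn4* and *Trpm3*, higher in PC20, thus held fewer CpG than those of *Cacna1c* and *Kcnip3*, higher in PC5. This order depends on the choice of window. Averaged over all windows of a gene, *Trpm3* had 5.17 CpG per 100 bases and *Kcnip3* 4.44. These 5 genes were picked by their values, and a link of CpG content to direction was not tested. Windows of 300 bases were found for 109 of the 144 members and for 23 of the 27 that were on. For the medians, CpG was averaged over all windows of a gene and not taken from the richest one. *Cacna1c*, for example, had 7.44 CpG per 100 bases by this average and 19.0 in the window shown. The median was 6.67 CpG per 100 bases for those 23 members, 3.33 for the 86 matched members on in neither library and 2.33 for all 27025 genes with a window. GGGCGG stood in at least 1 window of 18 of the 23 (78.3%), of 51.2% of the members on in neither library and of 38.2% of all genes. TATAAA on either strand was present for 1 of the 23 (4.35%) and for 15.7% of all genes, and TGANTCA, an AP-1-type motif, for 2 of the 23 (8.70%) and for 8.97% of all genes. These matches describe letters in a window and not bound sites. A gene was counted where any of its windows matched, and the number of windows per gene was not made equal between the groups.

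Among the 40 voltage-gated and related potassium pore genes, 4 were on in PC5 and 2 in PC20. *Kcnd1*, the pore of a fast-inactivating A-type current, was the highest of them in PC5 with 4.82 CPM (4.54 to 5.12) and had 0.617 CPM (0.511 to 0.739) in PC20, with a log2 ratio of 2.97 (2.69 to 3.25). *Kcnh1*, an ether-à-go-go channel, had 1.34 CPM in PC5 against 0.0994 CPM in PC20, with a log2 ratio of 3.75 (3.08 to 4.51). Both pores were on in PC5 alone. *Kcnf1* encodes a subunit that is silent by itself and modifies the pores it joins. It had 1.99 CPM (1.81 to 2.18) in PC5 against 2.26 CPM (2.05 to 2.48) in PC20, intervals that overlap. *Kcna4*, another A-type pore, was on in PC20 alone, with 1.27 CPM (1.12 to 1.44) against 0.336 CPM (0.264 to 0.421) in PC5. It lay just inside the threshold with 1.18% of thinned PC20 cells. Just outside it were *Kcnn1* with 0.757%, *Kcnc2* with 0.746% and *Cacnb1* with 0.667% of thinned PC5 cells. *Kcnc2*, a fast delayed rectifier, had 142 UMIs in PC5 and 0 in PC20. Set against a floor of 3 UMIs in PC20, this was 40.6-fold higher in PC5, and the lower limit of the log2 ratio was 5.02.

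The accessory subunits of these pores held the largest log2 ratio in each direction among the 27 members, both of them in the KChIP subfamily. *Kcnip1* and *Kcnip3* encode KChIP proteins, calcium sensors that bind the *Kcnd* pores, and the product of *Kcnip3* is also known as the transcriptional repressor DREAM. *Kcnip1* (chromosome 11, 33629339 to 33993152, minus strand) had 0.363 CPM from 81 UMIs in PC5 against 53.2 CPM from 10161 UMIs in PC20, a 146-fold difference (118 to 185). It was found in 0.430% of thinned PC5 cells and 39.2% of thinned PC20 cells, or 0.804% and 71.2% before thinning. *Kcnip3* (chromosome 2, 127456498 to 127522094, minus strand) had 3.88 CPM from 865 UMIs in PC5 against 0.0157 CPM from 3 UMIs in PC20, a ratio of 247 (84.3 to 1200). *Kcnip3* was thus nearly absent from PC20, where *Kcnip1* was abundant, and in PC5 *Kcnip3* had the higher level of the pair but was itself low. *Kcnip1* gave 97.5% of the UMIs of the 12 accessory members in PC20 and 5.24% in PC5, and *Kcnip3* gave 56.0% in PC5 and 0.0288% in PC20. The pores they bind were sparse in PC20, where *Kcnd1* had 118 UMIs, *Kcnd2* 0 and *Kcnd3* 2. *Kcnip1* overlaps the listed gene 4930469K13Rik on the same strand, the single overlap of this kind among the 27 members, so a part of its reads could have been assigned differently. *Kcnab1*, a cytosolic beta subunit, had 1.22 CPM in PC5 against 1.08 CPM in PC20, with a log2 ratio of 0.17 whose interval of -0.10 to 0.44 includes 0.

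Inward rectifiers let potassium in at negative potentials and couple vessel tone to neural activity. The inward rectifier members, which do not include *Kcnj8*, were low in both libraries. Of the 14 *Kcnj* members 1 was on in PC5 and 0 in PC20. *Kcnj4*, a strong inward rectifier, had 1.21 CPM (1.07 to 1.36) in PC5 against 0.319 CPM (0.244 to 0.410) in PC20, and with 1.22% of thinned PC5 cells it was among the 3 members just inside the threshold. *Kcnj2*, the strong inward rectifier of vascular cells, had 20 UMIs in PC5 against 46 in PC20, and *Kcnj11*, a pore of the ATP-sensitive potassium channel, had none in either.

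Of the 14 leak (*Kcnk*) channel genes, 2 were on, both of them in both libraries, and they differed in direction. *Kcnk5*, an alkaline-activated leak channel, had 9.98 CPM (9.57 to 10.4) in PC5 against 1.75 CPM (1.57 to 1.95) in PC20, a 5.71-fold difference (5.09 to 6.43). *Kcnk2*, the stretch-sensitive channel TREK-1, had 2.50 CPM (2.30 to 2.72) in PC5 against 4.83 CPM (4.52 to 5.15) in PC20, a 1.93-fold difference (1.74 to 2.15) the other way. *Kcnk5* gave 76.5% of the leak channel UMIs in PC5, and *Kcnk2* gave 66.0% in PC20. *Kcnk3*, a leak channel of vascular smooth muscle, had no UMI in either library.

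The calcium- and sodium-activated group had 3 of 12 members on in PC5 and 2 in PC20. *Kcnn4* (chromosome 7, 24370263 to 24386690, plus strand) encodes the intermediate-conductance calcium-activated channel, which many dividing non-excitable cells carry. It had 1.57 CPM from 350 UMIs in PC5 against 46.4 CPM from 8861 UMIs in PC20, a 29.5-fold difference (26.6 to 33.0). The share of thinned cells with a UMI was 1.30% in PC5 and 35.2% in PC20, and 2.96% and 67.4% before thinning. *Kcnt2*, a sodium-activated channel, had 8.43 CPM in PC5 against 6.61 CPM in PC20, with a log2 ratio of 0.35 (0.25 to 0.45). It gave 68.2% of the group's UMIs in PC5 and 12.4% in PC20, where *Kcnn4* gave 86.7%. The large-conductance channel of smooth muscle was nearly absent in both libraries. Its pore gene *Kcnma1* had 3 UMIs in PC5 against 0 in PC20, and its smooth muscle beta subunit *Kcnmb1* had 8 and 0. Its neuronal beta subunit *Kcnmb4* was nevertheless on in PC5, with 1.25 CPM (1.10 to 1.40) against 0.0680 CPM (0.0362 to 0.116) in PC20, and with 1.20% of thinned PC5 cells it lay just inside the threshold.

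Calcium channel genes summed to 64.0 CPM in PC5 against 46.5 CPM in PC20, and the pore genes differed in direction. Of the 10 pore (alpha1) genes 3 were on in PC5 and 1 in PC20. *Cacna1c* (chromosome 6, 118587240 to 119196418, minus strand), the L-type pore through which vascular muscle takes up calcium, had 10.1 CPM from 2244 UMIs in PC5 against 0.0471 CPM from 9 UMIs in PC20, a 214-fold difference (112 to 468). It was found in 9.78% of thinned PC5 cells and 0.0671% of thinned PC20 cells, or 18.3% and 0.147% before thinning. *Cacna1b*, the N-type pore of nerve endings, had 4.01 CPM in PC5 against 0.283 CPM in PC20, a 14.2-fold difference (10.8 to 19.0). *Cacna1a*, the P/Q-type pore, was the exception, with 8.94 CPM (8.56 to 9.35) in PC5 against 17.2 CPM (16.6 to 17.8) in PC20. *Cacna1a* gave 38.1% of the pore UMIs in PC5 and 97.9% in PC20, while *Cacna1c* gave 42.9% and 0.268%. The T-type pores *Cacna1h* with 71 UMIs and *Cacna1g* with 21 UMIs were seen in PC5 and had none in PC20, and the L-type pore *Cacna1d* had 2 and 0.

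Auxiliary subunits set how much of a calcium channel reaches the membrane. *Cacna2d1*, the alpha2delta subunit that gabapentin binds, had 18.8 CPM (18.2 to 19.4) in PC5 against 11.4 CPM (10.9 to 11.9) in PC20 and gave 97.2% and 99.9% of the alpha2delta UMIs. *Cacna2d3* had 113 UMIs in PC5 and 0 in PC20. Set against a floor of 3 UMIs in PC20, this was 32.3-fold higher in PC5, and the lower limit of the log2 ratio was 4.69. The beta subunits, which carry the pore to the membrane, were again divided in direction. *Cacnb3* had 15.1 CPM in PC5 against 7.02 CPM in PC20 (log2 ratio 1.11, 1.01 to 1.20), and *Cacnb4* had 1.68 and 0.126 CPM (log2 ratio 3.74, 3.14 to 4.40). *Cacnb2*, the main beta subunit of heart, had 3.36 CPM in PC5 against 8.72 CPM in PC20 (log2 ratio -1.38, -1.50 to -1.25). It gave 16.2% of the beta subunit UMIs in PC5 and 54.1% in PC20. None of the 8 *Cacng* members was on in either library. *Cacng8* was the highest of them, with 0.769 CPM in PC20.

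TRP genes summed to 56.2 CPM in PC5 against 77.4 CPM in PC20, with 3 of 21 on in PC5 and 5 in PC20. *Trpm7*, a magnesium- and calcium-permeable channel fused to a kinase, was the highest protein-coding member in PC5 and was seen in many cells of both libraries. It had 50.2 CPM (49.2 to 51.1) in PC5 against 35.0 CPM (34.2 to 35.9) in PC20, in 40.3% and 30.7% of thinned cells. *Trpm3* (chromosome 19, 22139046 to 22995410, plus strand), a channel opened by heat and by the steroid pregnenolone sulfate, had 0.314 CPM from 70 UMIs in PC5 against 23.8 CPM from 4545 UMIs in PC20, a 75.8-fold difference (59.9 to 97.4). Its share of thinned cells was 0.271% in PC5 and 18.8% in PC20, and 0.663% and 42.6% before thinning. *Trpc1*, which joins other TRPC pores, had 0.623 CPM in PC5 against 7.62 CPM in PC20, a 12.2-fold difference (10.3 to 14.7). *Trpv4*, a channel opened by swelling and shear, had 1.35 CPM in PC5 against 9.26 CPM in PC20, a 6.86-fold difference (6.07 to 7.78). *Trpm4*, a calcium-activated sodium-permeable channel of myogenic tone, went the other way, with 2.98 CPM (2.75 to 3.21) in PC5 against 1.28 CPM (1.12 to 1.45) in PC20. *Trpc6*, a receptor-operated channel of vascular muscle, had 2 UMIs in PC5 against 0 in PC20, and *Trpv2* had 124 and 32 UMIs.

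A set of 21 members known from vascular muscle and endothelium was read whether on or not. Among those not yet given, *Kcnq5* had 95 UMIs in PC5 against 37 in PC20, *Kcna5* 2 and 0 and *Kcnn3* 2 and 2. Of the 21, 6 were on in at least 1 library, beside 12297 of all 31053 genes. In each library 8 of the 21 had at most 3 UMIs, and the share of all genes at that level is not given.

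The 20 barcodes found in both libraries were kept, and no doublet removal was done. Genes that these cells should lack gave a background for the shares of cells. The oligodendrocyte genes *Mobp*, *Mag* and *Mog*, the leukocyte genes *Cd48* and *Ptprc* and the neuronal gene *Rbfox3*, picked after their values were seen, were found in at most 0.0113% of thinned PC5 cells and 0.0671% of thinned PC20 cells. *Cacna1c* in PC20 lay at that level and *Kcnip3* in PC20 below it, and the limit of 1% lies well above it.

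Other markers moved with the passage. Of 5 pericyte markers, 4 were on in PC5 and 2 in PC20. *Pdgfrb* had 44.6 and 5.43 CPM, *Cspg4* 5.55 and 0.0994 CPM and *Rgs5* 1.82 CPM and 0. *Anpep* went the other way with 1.93 CPM in PC5 and 3.00 CPM in PC20. *Abcc9* had 1 UMI in each library, so the label rests on part of the list. Of 4 smooth muscle markers 2 were on in PC5 and 1 in PC20, and their summed level was 283 and 49.6 CPM. Of these sums *Tagln* gave 219 and 0.230 CPM, while *Acta2* differed less, with 62.8 and 49.2 CPM. Of 4 fibroblast markers 4 and 1 were on (1302 and 101 CPM), and of 5 endothelial markers 2 and 0 (181 and 0.251 CPM, with *Pecam1*, *Cldn5* and *Tie1* off). Of 6 neuronal markers 1 and 0 were on, with a sum of 52.9 CPM in PC5, of which *Stmn2* gave 52.6, and 0.209 CPM in PC20 from 40 UMIs. Of 4 astrocyte markers 2 were on in PC5 and 1 in PC20. Their sum of 151 and 229 CPM was nearly all *Slc4a4* (143 and 229 CPM), while *Aldh1l1* went the other way with 7.35 and 0.0262 CPM and *Gfap* had 97 UMIs and 0. Of 5 microglia markers 1 and 0 were on (4.09 and 0.801 CPM), as were 1 and 0 of 4 oligodendrocyte markers (0.915 and 0.931 CPM). For the neuronal and endothelial lists the channel counts were taken again in cells with no UMI of the list, an alternative added after the data were seen. Without cells that held a neuronal marker UMI, 23 members were on in PC5 and 18 in PC20, 12 were higher in PC5 and 7 in PC20. Without cells that held an endothelial marker UMI, the counts were 23, 18, 12 and 8. Shares over all genes in the cells that remained are not given. *Cacna1b* had 3.82 CPM in the 2783 PC5 cells with a neuronal marker UMI and 4.10 CPM in the other 7167. The endothelial step took out 7859 PC5 cells, with a median of 23039 UMIs, and left 2091 with a median of 16280. In PC5 these 2 lists rested mostly on *Stmn2* and on *Cdh5*, which gave 168 of the 181 CPM. The counts therefore describe cells without these UMIs, and the part of neuronal or endothelial cells in the result was not tested. For the other marker lists no such counts were taken, and their part was not tested.

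Cell by cell, channel RNA was sparse. A thinned PC5 cell held UMIs of a median of 2 members and a mean of 2.08, and a PC20 cell of a median of 3 and a mean of 2.66. No member was seen in 11.1% of cells in PC5 and 5.63% in PC20, and at least 3 were seen in 34.4% and 52.3%. The most seen in a cell was 9 in PC5 and 10 in PC20. *Kcnq1ot1* was the least evenly spread, with a variance over mean of 1.92 in PC5 and 2.43 in PC20 and up to 14 and 31 UMIs in a cell, where random sampling from equal cells gives about 1. *Trpm3* in PC20 came next with 1.64, and *Cacna1a* had 1.35 and *Kcnip1* 1.21 in the same library. *Cacna1c* in PC20 was seen in 3 thinned cells and was left out of this order. For the 4 genes that led the coding channel UMIs in PC20, the share of cells with a UMI of 1 gene was compared between cells with and without a UMI of another, as a description. *Kcnn4* was seen in 35.8% of thinned cells with a *Kcnip1* UMI and in 34.8% of the others. *Trpm3* was seen in 15.4% of cells with a *Kcnn4* UMI and in 20.6% of the others, and in 18.4% with and 19.0% without a *Kcnip1* UMI. *Trpm7* was seen in 30.0% of cells with and 31.1% without a *Kcnip1* UMI, in 29.6% with and 31.3% without one of *Kcnn4*, and in 32.8% with and 30.2% without one of *Trpm3*. The gap for *Kcnn4* and *Trpm3* was the widest of these 6 pairs. A wider gap was found outside them, with *Kcnip1* in 46.5% of PC20 cells with a *Cacna1a* UMI and in 37.9% of the others. *Kcnn4*, *Trpm3* and *Trpm7* had narrower gaps between cells with and without a *Cacna1a* UMI.

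**Figure D3:**
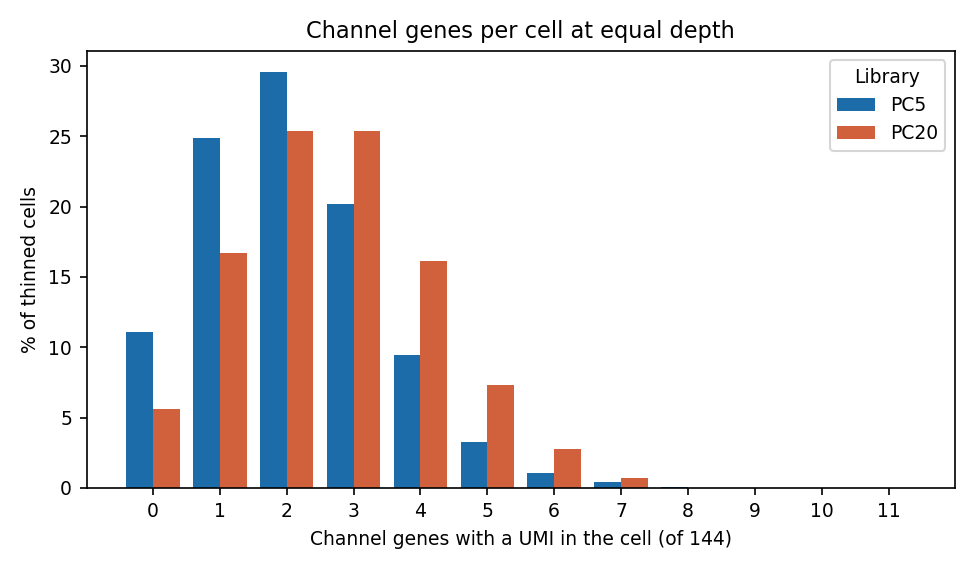
Percent of thinned cells (y axis) by the number of the 144 channel genes with a UMI in the cell (x axis), with PC5 in blue and PC20 in orange, each cell drawn down to the same number of UMIs. The PC5 bars peak at 2 genes with 29.6% of cells, and the PC20 bars are nearly equal at 2 and 3 genes with 25.4% each.

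Cells with a UMI of the division genes *Mki67* or *Top2a* made up 45.0% of PC5 and 72.2% of PC20 and were deeper than the rest, with a median of 25567 against 19195 UMIs in PC5 and 37658 against 26024 in PC20. Within a library no channel gene with at least 200 UMIs differed between these cells and the others by a log2 ratio over 1. *Trpm3* had the widest gap of those in PC20, with 20.8 CPM in dividing cells and 35.8 CPM in the others, with a log2 ratio of -0.78 (-0.87 to -0.69). *Kcnn4* was higher in dividing cells of both libraries, with 1.82 against 1.29 CPM in PC5 (log2 ratio 0.50, 0.18 to 0.82) and 48.4 against 38.1 CPM in PC20 (0.35, 0.26 to 0.43). *Kcnip1* in PC20 had 53.1 and 53.5 CPM. In PC5 *Cacna1a* had 6.67 CPM in dividing cells and 11.4 CPM in the others, with a log2 ratio of -0.78 (-0.91 to -0.64), and in PC20 17.4 and 16.4 CPM, where the interval of -0.04 to 0.22 includes 0. The share of dividing cells differed between the libraries, and its part in the differences between them was not tested. In cells with no UMI of either division gene, 23 members were on in PC5 and 17 in PC20, and 12 were higher in PC5 and 7 in PC20. Shares over all genes in these cells are not given, so the counts describe the list and are not support for a shift.

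**Figure D4:**
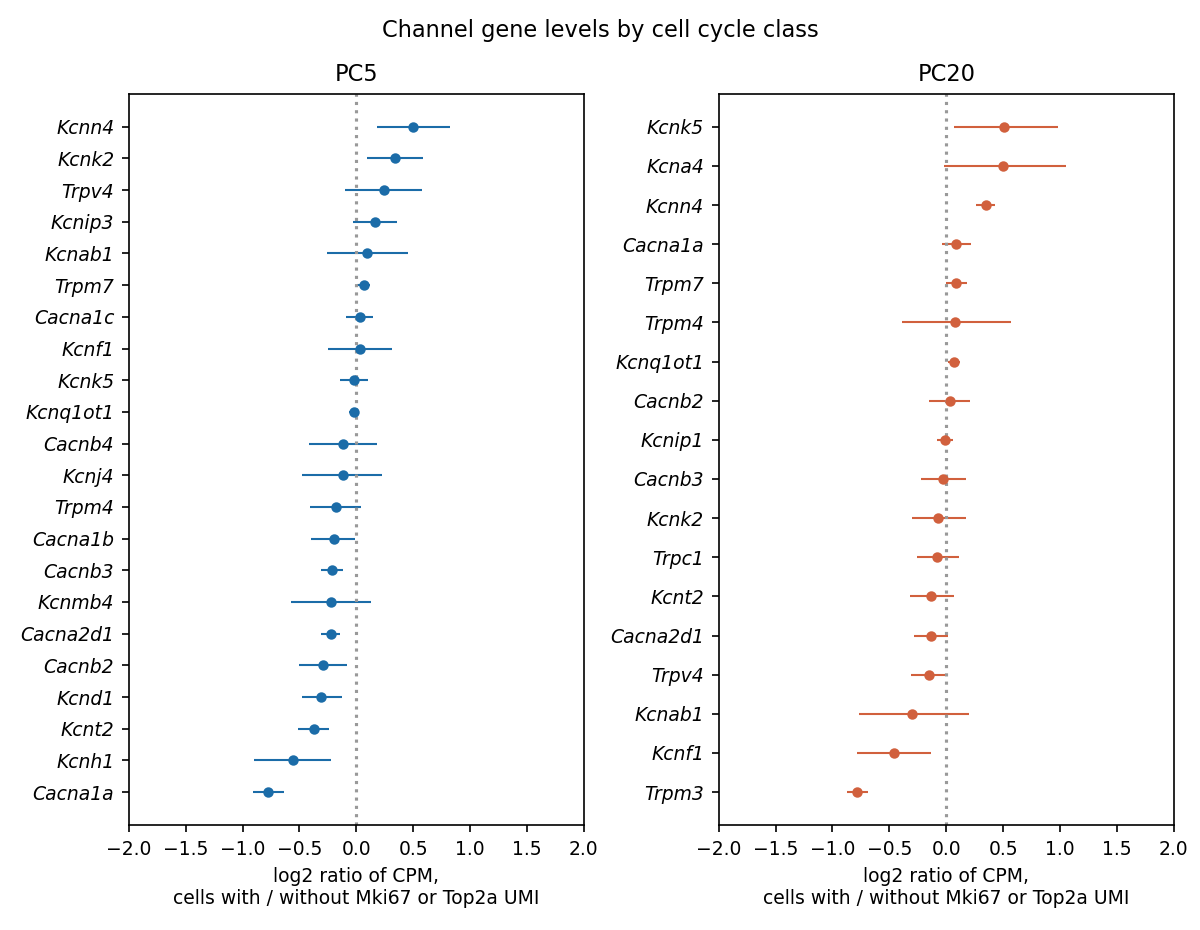
Log2 ratio of CPM in cells with a *Mki67* or *Top2a* UMI over CPM in the other cells, for channel genes with at least 200 UMIs in the library, in PC5 (left) and PC20 (right), with exact conditional 95% intervals as bars. *Cacna1a* lies lowest in PC5 at -0.78 and near 0 in PC20, *Trpm3* lies lowest in PC20 at -0.78, and *Kcnn4* lies above 0 in both.

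The 10% of cells with the highest summed share of the contractile genes *Acta2*, *Tagln* and *Myl9* were compared with the rest. This is a range of a continuous value, and 257 PC5 cells and 84 PC20 cells lay within 10% of its limit. The limit was 746 CPM in PC5 and 122 CPM in PC20, where *Tagln* had 0.230 CPM. The class thus differs in level and make-up between the libraries. In PC5 these 995 cells had more *Cacna1c* (12.3 against 9.81 CPM, log2 ratio 0.33, 0.14 to 0.51) and *Cacnb3* (18.6 against 14.7 CPM), and less *Kcnk5* (6.00 against 10.4 CPM, log2 ratio -0.80, -1.06 to -0.54). In PC20 the 475 cells had more *Trpm3*, with 38.9 against 22.2 CPM, with a log2 ratio of 0.81 (0.69 to 0.93). The same order held in dividing cells (36.1 against 19.3 CPM) and in the others (48.6 against 34.2 CPM). The 282 PC5 cells with a UMI of the pericyte marker *Rgs5* had 3.51 CPM of *Kcnh1* against 1.27 CPM in the rest (log2 ratio 1.46, 0.78 to 2.08), from 23 UMIs. They also had 3.51 against 1.51 CPM of *Kcnn4* and 14.5 against 8.78 CPM of *Cacna1a* (log2 ratio 0.72, 0.41 to 1.02). Their *Cacna1c* level of 10.7 CPM lay within counting error of the 10.0 CPM in the others.

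Genes of related ion transport were read beside the channels as 69 genes in 8 lists, of which 46 (66.7%) were on in PC5 and 48 (69.6%) in PC20, beside 37.6% and 36.1% of all genes. Of the 50 on in either library, 10 (20.0%) were higher in PC5 by a log2 ratio over 1 and 11 (22.0%) in PC20, with a median of 0.12. These shares lay near the 21.7% and 18.9% of all genes. The store-operated entry genes were on throughout and all 5 had higher levels in PC5, from *Orai2* with a log2 ratio of 0.62 to *Orai3* with 1.57, of which the last alone passed 1. Of the 6 release channels 3 were on, and *Itpr2*, an IP3 receptor, had 15.2 CPM in PC5 against 90.0 CPM in PC20 (log2 ratio -2.56, -2.61 to -2.51). The ryanodine receptors *Ryr1*, *Ryr2* and *Ryr3* were off in both. Of 13 calcium pumps and exchangers 4 were on in PC5 and 5 in PC20, and the abundant *Atp2a2* had 192 CPM in each. All 6 genes of mitochondrial calcium uptake were on in both, with a median log2 ratio of -0.73, and *Mcub*, a part of the uptake pore, had a log2 ratio of -1.23. Of 12 mechanosensitive and other cation channel genes 10 and 9 were on, with 4 higher in PC5, among them *Pkd2* with 66.8 and 18.2 CPM, and 1 in PC20. *Piezo1*, the stretch-gated channel, had 62.0 and 52.9 CPM. Of 16 chloride channel genes 15 and 14 were on, with 3 higher in PC5 and 2 in PC20, and *Clcn3* had 31.4 and 88.3 CPM. The sodium pump subunit *Atp1b1* had 3.55 CPM in PC5 against 112 CPM in PC20, while *Atp1b3* had 101 and 43.6 CPM. The RGK proteins, small GTPases that bind beta subunits and inhibit calcium channels, had 0 of 4 genes on in PC5 and 3 in PC20, with *Gem* at 0.655 and 2.95 CPM and *Rrad* at 0.619 and 2.69 CPM.

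By position, only members were counted, and the share of all genes on a chromosome that were on was not taken. Over all chromosomes, 12297 of the 31053 genes were on in at least 1 library. Of the 27 members that were on, 7 lie on chromosome 2, which carries 14 of the 144 members. They include *Cacna1b*, *Cacnb2*, *Cacnb4*, *Kcna4*, *Kcnip3* and *Trpm7*, and they went both ways, with *Cacnb2* and *Kcna4* higher in PC20 and the others higher in PC5. Chromosome 11 carries 17 members, of which *Kcnip1* alone was on, and chromosome 7 carries 18, of which *Kcnn4*, *Trpm4* and *Kcnq1ot1* were on.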

How the data were processed

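Single-cell RNA-seq libraries of cultured PCs at passage 5 and passage 20 were analysed. The values the authors deposited are counts of UMIs per gene and barcode, made with Cell Ranger 5.0 on mm10, with no normalization. Cells were kept by the thresholds the methods of the study state. The members and lists were chosen with earlier results of these data known.

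CPM was computed from UMIs summed over kept cells, giving 223054273 UMIs in PC5 and 191122251 in PC20. Shares of cells were counted after drawing each cell down to the same number of UMIs without replacement, near the 10th percentile of depth over both libraries. A ratio against a library with 0 UMIs was taken against 3 UMIs, and none was given where both had 3 or fewer. With 1 library a passage no test was made. Genes named were taken from the members on in either library, 21 vascular members whether on or not, and the 3 members on each side of 1%. Symbols were matched to GENCODE M21 (GRCm38), and promoter windows to RefSeq. Some genes of the naming rule and lists are not reported here. Protein sequences were not used here. Python 3.11.15, NumPy 2.4.6, SciPy 1.17.1 and pandas 2.3.3 were used, and the scripts were tested on simulated data.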

Additional observations from a re-analysis of the deposited data

Results flagged for a closer look

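The barcodes that the cell filter left out also held channel gene UMIs, which no comparison above used. In the 679 PC5 barcodes left out, channel genes had 168 CPM (95% Poisson interval 142 to 196, from 155 UMIs), below the 257 CPM of the kept cells. In the 135 PC20 barcodes left out they had 587 CPM (481 to 708, from 108 UMIs), above the 373 CPM of the kept cells. Both values lie above what a count of 3 UMIs allows, 3.25 and 16.3 CPM, and they are what marked these barcodes for a closer look.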

How the results depend on the processing

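With 1 library a passage, no alternative could leave out a replicate, and no paired analysis was possible because the labels carry no replicate numbers. The number of members on depends on depth and threshold: it was 15 in PC5 after thinning to 5000 UMIs, 15 at 2% of cells and 9 at 5%, and 28 in PC20 without thinning. At 5% of cells, 4 members were higher in PC5 and the median log2 ratio was -0.72, on the other side of 0. Elsewhere the counts stayed within 1.5 times and the median between 0.47 and 0.64, under a stricter cell filter, all barcodes, no cells of the highest depth, no dividing cells, other totals and another seed, and in cells without neuronal or endothelial marker UMIs, which were added after the data were seen. Of the log2 ratios of the 27 genes under 10 alternatives, 232 values moved by less than counting error, 38 by more, 13 of them in cells without division genes. The sign turned in 1 of them, *Kcnab1* in cells without division genes (-0.11), whose interval already included 0. The summed level lay beyond its counting error in 9 of 16 values and was lower in PC5 in each alternative. At this depth a gene under 3 UMIs in a library cannot be told from an absent one.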
